A study of Homo sapiens with 12 samples.

Results

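The tight junction genes described here are 39 genes that encode the claudins and the proteins that work beside them at the tight junction. They were picked out by gene symbol, in a list drawn up with earlier results of these data known, and all 39 were present among the 38434 named genes of the read count tables. They comprise 19 claudins, the 3 occludin family genes OCLN, MARVELD2 and MARVELD3, the 3 JAM family genes F11R, JAM2 and JAM3, 9 genes of cytoplasmic scaffolds and 5 genes of the polarity complexes.

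Poly(A) RNA from 4 stably transduced cell populations was sequenced, with 3 libraries for each. LK2-maspin cells carry maspin (SERPINB5, a member of the serpin family) together with ZsGreen, a green fluorescent protein, and LK2-ctrl cells carry ZsGreen without maspin. LC-AI-maspin and LC-AI-ctrl cells are the same pair made from RERF-LC-AI, and the parent lines, both of human lung squamous cell carcinoma (LUSC), have little endogenous maspin. All 4 groups went through lentiviral transduction and blasticidin selection, and each is a pool of surviving clones. LK-2 and RERF-LC-AI cells also differed in medium (RPMI1640 for LK-2, Eagle's minimum essential medium for RERF-LC-AI), count table and mapping run, so the line and these conditions cannot be told apart in a comparison between lines. The sources used here do not say whether the libraries of a group were separate cultures, and p-values therefore reflect only how much samples of a pool vary, which may be technical.

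Tight junctions seal the space between neighbouring epithelial cells near their apical surface. Claudins cross the membrane, pair with claudins of the next cell and set which ions pass. Occludin accompanies them in the same strands, and the JAM proteins lie at the same junctions. Scaffolds such as ZO-1 hold the strands from the inside and tie them to actin, and the Par and Crumbs complexes place the junction between the apical and the lateral membrane. In airway epithelium these junctions form part of the barrier against inhaled particles, and carcinoma cells often differ widely in the claudins they make.

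Levels are given as CPM, reads scaled to libraries of the same size after correction of all 12 by the trimmed mean of M-values (TMM). Fold changes come from the fit of each comparison and are log2 values ± SE, and a gene is called where its Benjamini–Hochberg adjusted p in the quasi-likelihood F test of edgeR was under 0.05. The LK-2 libraries held 39802246 to 54941357 counts on named genes, and the RERF-LC-AI libraries held 50143577 to 65454432. SERPINB5, the gene that was introduced, read 44.8 to 47.4 CPM in LK2-maspin against 1.70 to 1.90 CPM in LK2-ctrl libraries, and 470.1 to 550.5 CPM in LC-AI-maspin against 0.15 to 0.29 CPM in LC-AI-ctrl libraries. The labelled squamous cell type was checked against 8 markers, which summed to 396 to 538 CPM in LK-2 and 11.3 to 12.8 CPM in RERF-LC-AI libraries. TP63, the squamous lineage factor, averaged 0.64 to 1.18 CPM over the 4 groups, and the basal keratin KRT14 at most 0.42 CPM with 0 CPM in LK2-maspin cells. SOX2 averaged 397 to 500 CPM in the LK-2 groups, most of their sum, but 0.25 to 0.39 CPM in the RERF-LC-AI groups. KRT5 averaged 6.91 CPM in LK2-maspin and 0.73 CPM in LK2-ctrl cells, and at most 0.087 CPM in the RERF-LC-AI groups. It was the 1 marker that edgeR's quasi-likelihood test called in LK-2 cells (log2 fold change 3.25, adjusted p = 4.65e-05). DESeq2 and the likelihood ratio test of edgeR also called KRT6A higher and SOX2 lower in LK2-maspin cells. SOX2 averaged 397 CPM in LK2-maspin and 500 CPM in LK2-ctrl cells. PKP1 averaged 0.32 CPM in both LK-2 groups, but 8.04 CPM in LC-AI-maspin and 8.98 CPM in LC-AI-ctrl cells. DSG3, KRT6A and TRIM29 averaged at most 7.0 CPM in any group. Endothelial markers (PECAM1, CDH5, VWF) summed to 2.40 to 6.49 CPM per library. Of 3 leukocyte markers, CD3E averaged at most 0.068 CPM and PTPRC at most 1.12 CPM, while CD68, a lysosomal protein also made outside leukocytes, reached a mean of 47.0 CPM in LC-AI-ctrl cells.

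The first comparison asked which tight junction genes differed between LC-AI-maspin and LC-AI-ctrl cells. CLDN1 and CRB3 were higher and CLDN7, CGN and CGNL1 were lower in LC-AI-maspin cells, while the occludin and JAM families had no call. These 5 genes are 13.5% of the 37 members that passed the filter on low counts, against 10.5% of the 25197 genes tested in this line. The 2 higher members are set against 4.01% of all genes that were higher, and the 3 lower members against 6.53% that were lower. CLDN8 and CLDN14, with at most 12 reads in any library, did not pass. The median log2 fold change was −0.0095 over the members and 0.014 over all genes tested. With TMM scaling 1010 genes were higher and 1645 lower in LC-AI-maspin cells, with library size alone 1408 were higher and 1287 lower, and with upper-quartile factors 1305 were higher and 1388 lower. None of the 5 members changed direction under any scaling.

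CLDN1 (chr3:190305707-190322446, minus strand, GRCh38), a claudin that seals epithelial barriers, read 249.0, 277 and 247.5 CPM in LC-AI-maspin against 190.2, 178.5 and 184.8 CPM in LC-AI-ctrl libraries. The groups did not overlap, and the lowest LC-AI-maspin library lay well above the highest LC-AI-ctrl library. The log2 fold change was 0.48 ± 0.050 (1.40-fold, edgeR adjusted p = 4.85e-08). CLDN1 was the most abundant claudin of RERF-LC-AI cells, so that its rise was also the largest in CPM of any claudin there.

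CLDN7 (chr17:7259903-7263983, minus strand), a claudin of simple epithelia that binds EpCAM, read 1.34, 1.06 and 0.98 CPM (65, 63 and 61 reads) in LC-AI-maspin against 3.29, 1.88 and 2.70 CPM (158, 98 and 125 reads) in LC-AI-ctrl libraries. All 3 LC-AI-maspin libraries were below all 3 LC-AI-ctrl libraries, and LC-AI-ctrl replicate 2 lay nearest to them. CLDN7 fell by 1.22 ± 0.21 on the log2 scale (2.33-fold lower, edgeR adjusted p = 0.00018). It was a minor transcript of these cells in both groups, at about the level of 1 to 3 CPM.

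CRB3 (chr19:6463777-6467221, plus strand), the Crumbs protein of epithelial cells that marks the apical membrane and recruits PALS1, had few reads in RERF-LC-AI cells. The libraries held 37, 43 and 37 reads in LC-AI-maspin against 10, 19 and 17 reads in LC-AI-ctrl libraries, or 0.77, 0.72 and 0.60 CPM against 0.21, 0.37 and 0.37 CPM. The groups did not overlap. The log2 fold change was 1.14 ± 0.36 (2.20-fold, edgeR adjusted p = 0.0411). This call did not survive leaving out any 1 of the 6 libraries, where the adjusted p ran from 0.0571 to 0.155 and the log2 fold change from 0.92 to 1.27.

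CGN (chr1:151510510-151538692, plus strand) and CGNL1 (chr15:57375967-57550717, plus strand) encode cingulin and paracingulin, coiled-coil proteins of the cytoplasmic plaque that bind ZO-1. CGN read 8.19, 8.43 and 8.18 CPM in LC-AI-maspin against 9.86, 11.3 and 10.8 CPM in LC-AI-ctrl libraries, and the groups did not overlap. It fell by 0.36 ± 0.096 on the log2 scale (1.29-fold lower, edgeR adjusted p = 0.0110). Without LC-AI-maspin replicate 3, LC-AI-ctrl replicate 2 or LC-AI-ctrl replicate 3 its adjusted p was 0.0534, 0.0536 and 0.0535.

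CGNL1 read 6.41, 6.34 and 5.34 CPM in LC-AI-maspin against 6.76, 9.98 and 12.2 CPM in LC-AI-ctrl libraries. The highest LC-AI-maspin library came close to LC-AI-ctrl replicate 1, and the LC-AI-ctrl libraries spread more than those of LC-AI-maspin. CGNL1 fell by 0.68 ± 0.14 on the log2 scale (1.60-fold lower, edgeR adjusted p = 0.00139).

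**Figure D1:**
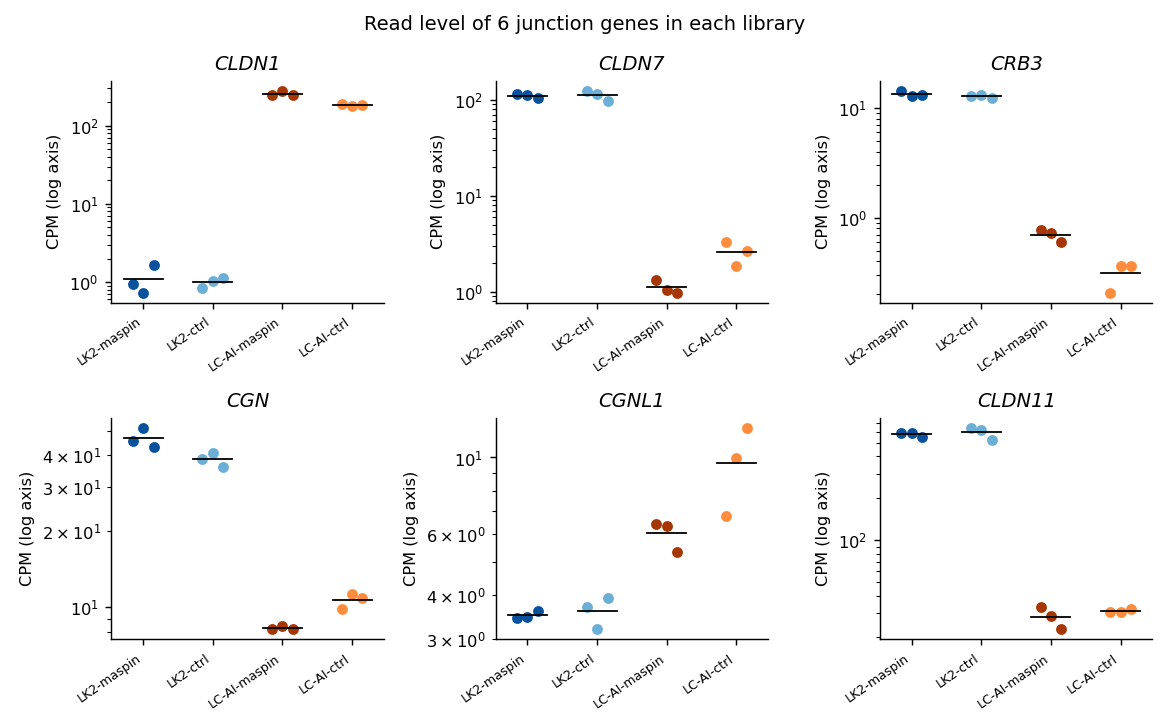
Level of 6 tight junction genes in each of the 12 libraries, in CPM on log axes, with LK2-maspin, LK2-ctrl, LC-AI-maspin and LC-AI-ctrl from left to right. Points are libraries and bars are means of 3: CLDN1 averages 258 CPM in LC-AI-maspin and 184.5 CPM in LC-AI-ctrl cells, and CLDN7 averages 110 CPM in LK2-maspin and 112 CPM in LK2-ctrl cells but 1.13 CPM in LC-AI-maspin and 2.62 CPM in LC-AI-ctrl cells.

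The other claudins of RERF-LC-AI cells had no call. CLDN15, which forms cation pores in the intestine, averaged 7.23 ± 1.10 CPM in LC-AI-maspin and 5.69 ± 0.37 CPM in LC-AI-ctrl cells (SD, n = 3 each; log2 fold change 0.34 ± 0.12, edgeR adjusted p = 0.0756). CLDN6, a claudin of embryonic epithelium, averaged 0.58 ± 0.075 CPM in LC-AI-maspin and 1.003 ± 0.30 CPM in LC-AI-ctrl cells (log2 fold change −0.80 ± 0.30, adjusted p = 0.0913). CLDN12, which lets calcium pass, averaged 42.1 ± 1.12 CPM in LC-AI-maspin and 41.6 ± 0.27 CPM in LC-AI-ctrl cells, with a log2 fold change of 0.017 whose interval of 2 SE either side ran from −0.092 to 0.13. Over the 17 claudins tested, 1 was higher, 1 was lower and 15 were not called. This is 11.8% called, near the 10.5% of all genes, and the median log2 fold change of the 17 was 0.20. Several of these claudins had few reads, and CLDN2, a cation pore, illustrates the limit with 20, 24 and 8 reads in LC-AI-maspin and 4, 14 and 5 reads in LC-AI-ctrl libraries.

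Occludin and its relatives had no call in RERF-LC-AI cells. OCLN averaged 40.2 ± 0.38 CPM in LC-AI-maspin and 41.3 ± 1.97 CPM in LC-AI-ctrl cells, with an interval of the log2 fold change from −0.15 to 0.077. MARVELD2, or tricellulin, which sits where 3 cells meet, had a log2 fold change of 0.031 ± 0.086, and MARVELD3 one of −0.10 ± 0.16. F11R (JAM-A) averaged 20.4 ± 0.63 CPM in LC-AI-maspin and 23.3 ± 1.74 CPM in LC-AI-ctrl cells, and its log2 fold change of −0.19 ± 0.072 missed the threshold (adjusted p = 0.105). Among the scaffolds, TJP1 (ZO-1) averaged 174 ± 5.59 CPM in LC-AI-maspin and 184 ± 5.40 CPM in LC-AI-ctrl cells (log2 fold change −0.080 ± 0.047, adjusted p = 0.353), and the multi-PDZ protein gene MPDZ had a log2 fold change of −0.18 ± 0.060 (adjusted p = 0.0573). The genes of the Par complex, which sets the border of the apical domain, had adjusted p-values of 0.166 for PARD6A, 0.607 for PARD3, 0.677 for PRKCI and 0.953 for PARD6B. Some members crossed the threshold when a library was left out: CLDN11 (adjusted p = 0.0313) and PARD6A (0.0302) without LC-AI-maspin replicate 1, CLDN15 (0.0217) without LC-AI-maspin replicate 2, CLDN6 (0.0455) and SYMPK (0.0471) without LC-AI-ctrl replicate 1, and F11R (0.0282) and PARD6A (0.0454) without LC-AI-ctrl replicate 2. DESeq2 called MPDZ and SYMPK besides CLDN1, CLDN7, CGN and CGNL1, but gave CRB3 no adjusted p. The likelihood ratio test of edgeR also called MPDZ (adjusted p = 0.0498). SYMPK was also called with library size alone (log2 fold change 0.17, adjusted p = 0.00972).

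The second comparison asked the same of LK2-maspin and LK2-ctrl cells. None of the 37 members tested was called by edgeR, against 0.533% of the 26270 genes tested in this line, and 1 member, CGN, had an unadjusted p under 0.05. DESeq2 and the likelihood ratio test of edgeR also called 0 members. The log2 fold changes ran from −0.80 to 0.63 with a median of −0.037, against −0.0010 over all genes. Both ends of that range belong to genes with few reads, CLDN9 at the low end and TJP3 (ZO-3) at the high end.

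CGN read 45.7, 51.4 and 43.0 CPM in LK2-maspin against 38.6, 40.9 and 35.9 CPM in LK2-ctrl libraries. The groups did not overlap, with a log2 fold change of 0.28 ± 0.077 (unadjusted p = 0.00383, edgeR adjusted p = 0.274). CGN was thus the member nearest to a call in this line. The most abundant claudins of LK-2 cells had narrow intervals around 0: from −0.18 to 0.094 for CLDN11, from −0.18 to 0.13 for CLDN7 and from −0.22 to 0.23 for CLDN12. CRB3 read 14.3, 12.9 and 13.1 CPM in LK2-maspin against 12.8, 13.3 and 12.4 CPM in LK2-ctrl libraries, and the groups overlapped (log2 fold change 0.069 ± 0.091). CLDN1 had 54, 31 and 83 reads in LK2-maspin and 42, 60 and 56 reads in LK2-ctrl libraries, so that its interval was wide, from −0.47 to 0.77. Epithelial markers summed to 2580 to 2691 CPM in LK2-maspin and 2340 to 2445 CPM in LK2-ctrl libraries, where edgeR called 0 of 10, 5 had an unadjusted p under 0.05 and DESeq2 and the likelihood ratio test called 1, KRT8.

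**Figure D2:**
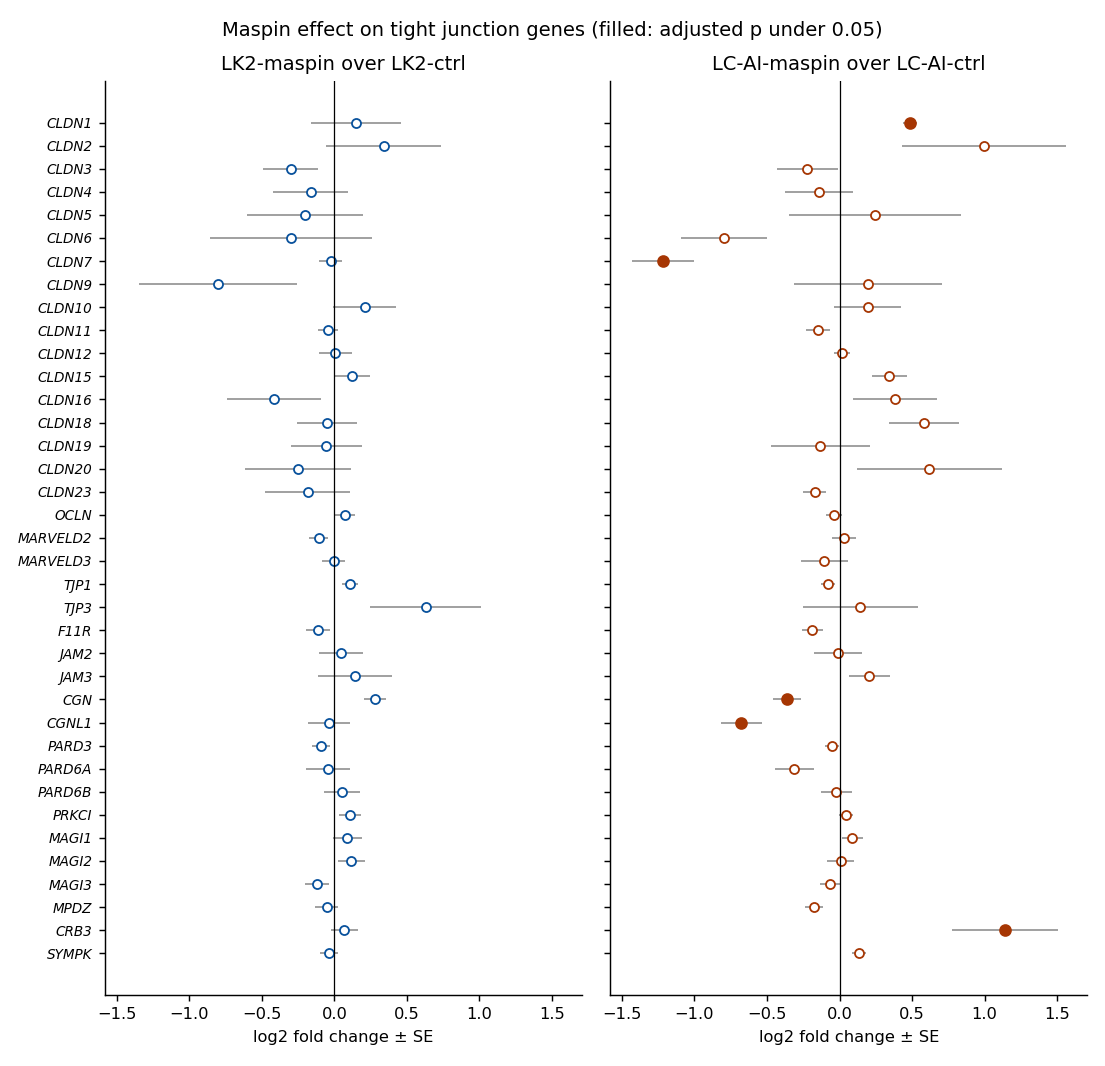
Log2 fold change of maspin over ctrl for the 37 members tested, with bars of 1 SE, for LK2-maspin over LK2-ctrl on the left and LC-AI-maspin over LC-AI-ctrl on the right. Filled points passed an adjusted p of 0.05: none on the left, and on the right CLDN1 (0.48), CRB3 (1.14), CLDN7 (−1.22), CGN (−0.36) and CGNL1 (−0.68).

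Whether maspin had a different effect in the lines was tested directly as an interaction, the effect in RERF-LC-AI minus that in LK-2 cells. It was called for 3 members, CLDN7, CGN and CRB3, or 8.11% of 37, against 1.76% of the 28123 genes tested (0.402% positive and 1.35% negative). TMM scaling gave 113 positive and 381 negative calls over all genes, and library size alone gave 202 and 408. The maspin cells of the lines also differed in SERPINB5, which averaged 46.4 CPM in LK2-maspin and 512 CPM in LC-AI-maspin cells. Each group was also a pool of its own, so line, maspin level and pool cannot be told apart in the interaction.

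For CLDN7 the effects differed by −1.19 ± 0.21 (edgeR adjusted p = 0.00465): it was lower in LC-AI-maspin than in LC-AI-ctrl cells, while it averaged 110 ± 5.87 CPM in LK2-maspin and 112 ± 13.4 CPM in LK2-ctrl cells. For CGN the difference was −0.64 ± 0.12 (adjusted p = 0.00555), made of a fall in RERF-LC-AI cells and a positive estimate in LK-2 cells that was not called on its own. For CRB3 it was 1.07 ± 0.25 (adjusted p = 0.0325), and this call was lost (adjusted p from 0.0564 to 0.134) without LK2-maspin replicate 2 or 3, LK2-ctrl replicate 2, LC-AI-maspin replicate 1 or 2, or LC-AI-ctrl replicate 1 or 3. These 3 genes represent a claudin, a plaque protein and an apical polarity protein.

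CGNL1 and CLDN1, although called in RERF-LC-AI cells, are not shown to respond differently in the lines. The difference was −0.64 ± 0.24 for CGNL1 (adjusted p = 0.237) and 0.33 ± 0.23 for CLDN1 (adjusted p = 0.637), where the low level of CLDN1 in LK-2 cells left an interval from −0.14 to 0.80. Without LC-AI-ctrl replicate 1 the difference for CGNL1 was −0.87 with an adjusted p of 0.0304.

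The third comparison described the backgrounds in which maspin was expressed, LK2-ctrl over LC-AI-ctrl cells. Of the members, 18 were higher and 8 lower in LK2-ctrl cells, 70.3% of 37, which is near the 61.9% of all 28123 genes tested (31.4% higher and 30.5% lower). The median log2 difference was 0.36 over the members and 0.12 over all genes. Library size alone moved the median of all genes to 0.34 and upper-quartile factors also to 0.34, and the split of called genes to 11396 higher and 7053 lower or to 11463 higher and 7056 lower, against 8824 higher and 8583 lower with TMM. Differences near that size depend on the scaling: OCLN was called lower in LK2-ctrl cells with TMM (−0.29 ± 0.068, adjusted p = 0.000860) but not with library size alone (−0.072, adjusted p = 0.323) or upper-quartile factors (−0.070, adjusted p = 0.336). CLDN2, CLDN12, MAGI3 and SYMPK were called higher in LK2-ctrl cells with those scalings alone, apart from CLDN2, which was also called without LC-AI-ctrl replicate 2 (adjusted p = 0.0248).

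CLDN1 showed the widest gap of all members, with 0.83, 1.04 and 1.13 CPM in LK2-ctrl against 190.2, 178.5 and 184.8 CPM in LC-AI-ctrl libraries (log2 difference −7.52 ± 0.15, adjusted p = 9.43e-20). CLDN7 ran the other way, with 123, 116 and 97.5 CPM in LK2-ctrl against 3.29, 1.88 and 2.70 CPM in LC-AI-ctrl libraries (5.43 ± 0.14, adjusted p = 6.34e-18). No library of one line came near those of the other for either gene.

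CRB3 followed CLDN7 with 12.8, 13.3 and 12.4 CPM in LK2-ctrl against 0.21, 0.37 and 0.37 CPM in LC-AI-ctrl libraries (5.34 ± 0.17, adjusted p = 2.20e-16). CLDN11, which forms the strands of myelin and of Sertoli cells, read 642, 623.5 and 526 CPM in LK2-ctrl against 30.5, 30.6 and 31.9 CPM in LC-AI-ctrl libraries (4.27 ± 0.11, adjusted p = 4.73e-18). CLDN23, a claudin known from intestinal epithelium, read 0.63, 0.94 and 1.09 CPM in LK2-ctrl against 15.5, 16.6 and 15.3 CPM in LC-AI-ctrl libraries (−4.15 ± 0.16, adjusted p = 3.30e-15). Thus CLDN7, CLDN11 and CRB3 marked LK2-ctrl cells, and CLDN1 and CLDN23 marked LC-AI-ctrl cells.

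MARVELD3, the occludin relative, read 26.1, 27.6 and 24.0 CPM in LK2-ctrl against 2.70, 2.56 and 3.38 CPM in LC-AI-ctrl libraries (3.17 ± 0.11, adjusted p = 1.55e-15). F11R, whose protein JAM-A binds integrins and PAR-3 besides sealing contacts, read 192.4, 207 and 228.5 CPM in LK2-ctrl against 24.7, 21.3 and 23.9 CPM in LC-AI-ctrl libraries (3.17 ± 0.082, adjusted p = 7.80e-18). CLDN6 was scarce in both, with 15, 6 and 14 reads in LK2-ctrl and 36, 48 and 62 reads in LC-AI-ctrl libraries (−2.14 ± 0.40, adjusted p = 8.23e-05). These 3 genes were named for their large differences. No called member except CLDN5 had overlapping libraries between the lines, so this does not set the 3 apart. CLDN2, which was not called with TMM, had no overlap either, and the share of all genes without overlap was not counted.

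**Figure D3:**
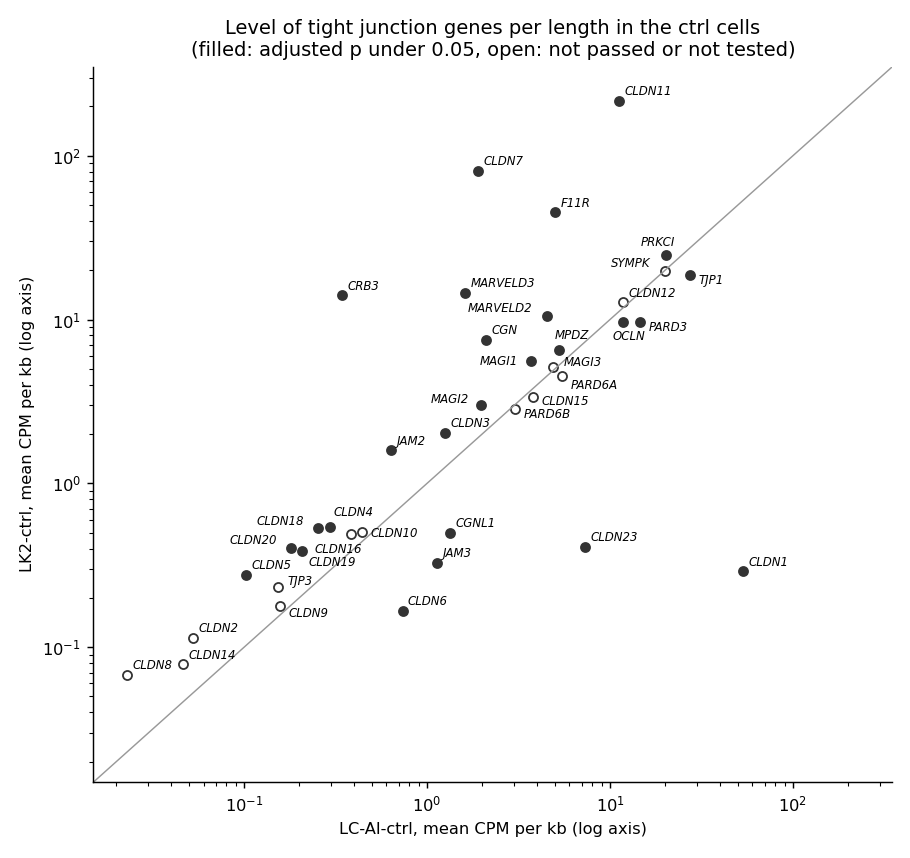
Mean level of the 39 members per kb of transcript in LK2-ctrl cells (vertical) and LC-AI-ctrl cells (horizontal), both on log axes in CPM per kb, with a line of equal level. Filled points passed an adjusted p of 0.05, and CLDN7 (81.2 CPM per kb in LK2-ctrl, 1.89 in LC-AI-ctrl), CRB3 (14.1 in LK2-ctrl, 0.34 in LC-AI-ctrl) and CLDN1 (0.29 in LK2-ctrl, 53.5 in LC-AI-ctrl) lie farthest from the line.

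Of the 9 scaffold genes 4 were higher and 2 lower in LK2-ctrl cells, or 66.7% called, which is near the 61.9% of all genes. TJP1 averaged 127 ± 6.98 CPM in LK2-ctrl and 184 ± 5.40 CPM in LC-AI-ctrl cells (log2 difference −0.53 ± 0.057), and PARD3, which binds JAM-A and recruits aPKC, averaged 55.5 ± 2.01 CPM in LK2-ctrl and 84.2 ± 2.62 CPM in LC-AI-ctrl cells (−0.60 ± 0.057). PRKCI, the gene of the atypical protein kinase C of the Par complex, averaged 121 ± 6.02 CPM in LK2-ctrl and 99.1 ± 2.85 CPM in LC-AI-ctrl cells (0.29 ± 0.064). The cingulin genes pointed in opposite directions: CGN averaged 38.5 ± 2.49 CPM in LK2-ctrl and 10.7 ± 0.72 CPM in LC-AI-ctrl cells (1.85 ± 0.085), while CGNL1 averaged 3.60 ± 0.37 CPM in LK2-ctrl and 9.64 ± 2.73 CPM in LC-AI-ctrl cells (−1.42 ± 0.17). The JAM family was likewise divided, with JAM2 higher (1.32 ± 0.15) and JAM3 lower (−1.79 ± 0.20) in LK2-ctrl cells. SYMPK, which encodes symplekin, a polyadenylation factor also found at tight junctions, averaged 109 ± 7.17 CPM in LK2-ctrl and 109 ± 4.04 CPM in LC-AI-ctrl cells. Its log2 difference had an interval from −0.12 to 0.12 with TMM, and was 0.22 with library size alone (adjusted p = 0.000901).

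The make-up of the claudin transcripts was compared per kb of transcript, since longer transcripts give more reads. Of 19 claudins, 7 stayed under 1 CPM in all 4 groups (CLDN2, CLDN5, CLDN8, CLDN9, CLDN14, CLDN16 and CLDN20), among them CLDN5 of endothelium and CLDN16 of the kidney. CLDN11 and CLDN12 exceeded 10 CPM in every group. CLDN11 made up 67.3 ± 0.49% of the summed claudin CPM per kb in LK2-maspin and 67.6 ± 0.56% in LK2-ctrl cells, and CLDN7 made up 25.6 ± 0.52% in LK2-maspin and 25.3 ± 0.62% in LK2-ctrl cells. In RERF-LC-AI cells CLDN1 led with 66.1 ± 2.62% in LC-AI-maspin and 57.1 ± 0.48% in LC-AI-ctrl cells, and the libraries of these groups did not overlap (63.3 to 68.5% against 56.8 to 57.7%).

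CLDN11, CLDN12, CLDN23 and CLDN7 took smaller shares in LC-AI-maspin than in LC-AI-ctrl cells. CLDN12 had 10.6 ± 0.69% in LC-AI-maspin and 12.6 ± 0.37% in LC-AI-ctrl cells, and CLDN11 had 7.68 to 10.4% in LC-AI-maspin and 11.5 to 12.3% in LC-AI-ctrl libraries. CLDN23 had 5.75 ± 0.21% in LC-AI-maspin and 7.82 ± 0.52% in LC-AI-ctrl cells, and CLDN7 had 0.72 ± 0.11% in LC-AI-maspin and 2.01 ± 0.50% in LC-AI-ctrl cells. CLDN15 had 4.25 ± 0.74% in LC-AI-maspin and 4.03 ± 0.18% in LC-AI-ctrl cells, and its libraries overlapped. Shares of a total move together, and of these 6 genes CLDN1 and CLDN7 were called on their own level, and CLDN11, CLDN12, CLDN15 and CLDN23 were not. The summed claudin level was 311 ± 10.4 CPM per kb in LK2-maspin and 320 ± 31.2 CPM per kb in LK2-ctrl cells, and 113 ± 4.68 CPM per kb in LC-AI-maspin and 93.7 ± 2.27 CPM per kb in LC-AI-ctrl cells (SD, n = 3 each). In bulk RNA a change in the share of cells that make a claudin and a change in RNA per cell cannot be told apart.

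**Figure D4:**
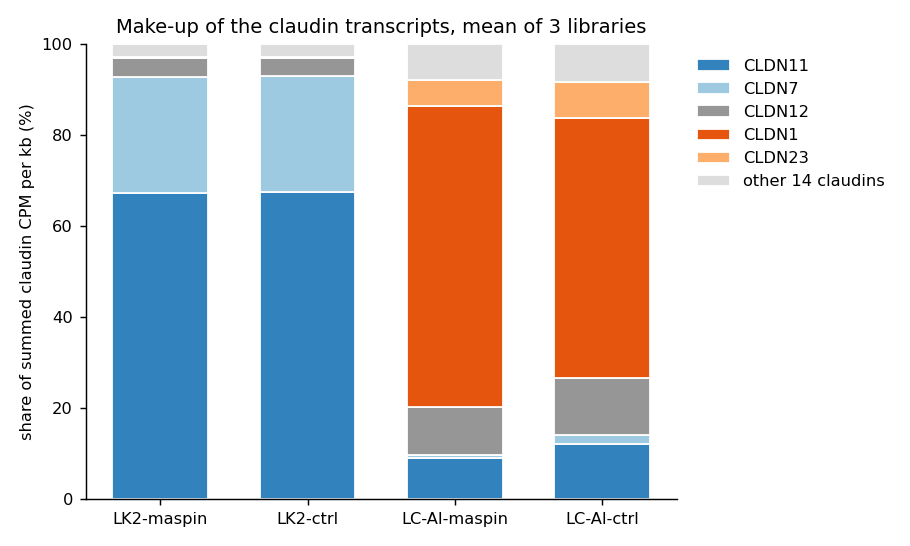
Share of each claudin in the summed claudin CPM per kb, in percent, as means of 3 libraries for LK2-maspin, LK2-ctrl, LC-AI-maspin and LC-AI-ctrl cells. CLDN11 and CLDN7 fill most of both LK-2 bars, and CLDN1 takes 66.1% of the LC-AI-maspin bar and 57.1% of the LC-AI-ctrl bar.

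Promoters are shown for CLDN7 and CRB3, the called members with the largest fold changes in LC-AI-maspin cells, and for CLDN1, the claudin that rose there. They were chosen after these values were seen. The 250 bases before each start were searched on both strands for CAGGTG, which reads CACCTG on the opposite strand, the form of the E-box CANNTG that Snail, Slug and the ZEB factors are known to bind. The letters come from RefSeq on GRCh38.p14, and capitals mark each match.
CLDN7, chr17:7262479-7262728, minus strand: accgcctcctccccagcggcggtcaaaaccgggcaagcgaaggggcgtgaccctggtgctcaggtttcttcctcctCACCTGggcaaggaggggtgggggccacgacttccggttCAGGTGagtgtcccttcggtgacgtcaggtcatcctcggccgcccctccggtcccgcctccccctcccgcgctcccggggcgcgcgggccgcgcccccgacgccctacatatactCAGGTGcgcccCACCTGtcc
CRB3, chr19:6464021-6464270, plus strand: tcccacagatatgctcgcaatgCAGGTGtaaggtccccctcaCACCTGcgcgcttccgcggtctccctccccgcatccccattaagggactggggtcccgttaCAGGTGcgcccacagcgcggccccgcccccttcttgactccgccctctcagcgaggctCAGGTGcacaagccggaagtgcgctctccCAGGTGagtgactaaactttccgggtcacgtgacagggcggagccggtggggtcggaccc
CLDN1, chr3:190322447-190322696, minus strand: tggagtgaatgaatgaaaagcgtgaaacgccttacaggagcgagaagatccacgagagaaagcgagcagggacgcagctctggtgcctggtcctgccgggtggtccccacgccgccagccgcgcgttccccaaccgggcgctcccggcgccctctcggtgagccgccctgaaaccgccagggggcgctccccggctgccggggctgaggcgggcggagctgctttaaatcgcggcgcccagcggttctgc

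This CLDN7 promoter held 4 matches, which begin at −174, −135, −20 and −9 counted from the start, and the CRB3 promoter held 5, at −228, −208, −147, −89 and −60. The CLDN1 promoter and the promoter of a second CLDN7 start upstream held 0. Of 35116 promoters in the table, 17.5% held at least 1 match and 43, or 0.122%, held at least 4. Of the 39 members, 28 were in the table with 41 promoters, and 8 of these 41 promoters had at least 1 match. A match is a run of letters and does not show that a factor binds there.

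The factors known to act on such sites, and those known to drive claudin genes, were among 16 transcription factors on a list. Between the lines 10 of them were higher and 2 lower in LK2-ctrl than in LC-AI-ctrl cells, against 31.4% of all genes higher and 30.5% lower. ZEB1 averaged 1.95 ± 0.14 CPM in LK2-ctrl and 59.8 ± 2.74 CPM in LC-AI-ctrl cells and ZEB2 1.32 ± 0.17 CPM in LK2-ctrl and 33.4 ± 1.08 CPM in LC-AI-ctrl cells, both repressors of epithelial genes. The repressors TWIST1 and SNAI2 ran the other way, with TWIST1 at 45.2 ± 4.72 CPM in LK2-ctrl and 11.2 ± 0.76 CPM in LC-AI-ctrl cells, and SNAI2 at 0.90 ± 0.19 CPM in LK2-ctrl and 0.18 ± 0.027 CPM in LC-AI-ctrl cells. GRHL2, an activator of epithelial junction genes, averaged 90.0 ± 3.63 CPM in LK2-ctrl and 0.16 ± 0.074 CPM in LC-AI-ctrl cells. Of 10 epithelial markers 8 were higher and 2 lower in LK2-ctrl cells, and of 6 mesenchymal markers 2 were higher and 4 lower, with CDH1 at 115 ± 6.29 CPM in LK2-ctrl and 2.96 ± 0.67 CPM in LC-AI-ctrl cells, and VIM at 0.59 ± 0.077 CPM in LK2-ctrl and 1786 ± 80.4 CPM in LC-AI-ctrl cells. The 2 epithelial genes that were lower were KRT8 (606 ± 28.4 CPM in LK2-ctrl, 1448 ± 52.6 CPM in LC-AI-ctrl) and KRT18 (306 ± 8.60 CPM in LK2-ctrl, 601 ± 17.7 CPM in LC-AI-ctrl). The 2 mesenchymal genes that were higher were the N-cadherin gene CDH2, at 342 ± 22.4 CPM in LK2-ctrl and 0.36 ± 0.034 CPM in LC-AI-ctrl cells, and the collagen gene COL1A1, at 15.5 ± 3.89 CPM in LK2-ctrl and 6.32 ± 0.83 CPM in LC-AI-ctrl cells. The part of these factors in the levels of CLDN7, CRB3 or CLDN1 was not tested.

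The same factors were compared between maspin and ctrl cells. In RERF-LC-AI cells edgeR called 0 of 16 with either test, against 10.5% of all genes with the quasi-likelihood test. Of the 16, 4 had an unadjusted p under 0.05, and DESeq2 called 2 lower, KLF5 and ZEB1. ZEB1 averaged 54.0 ± 1.04 CPM in LC-AI-maspin and 59.8 ± 2.74 CPM in LC-AI-ctrl cells (log2 fold change −0.15 ± 0.053, adjusted p = 0.0837). In LK-2 cells 2 of 16 were called higher, against 0.373% of all genes. TWIST1 averaged 70.8 ± 4.05 CPM in LK2-maspin and 45.2 ± 4.72 CPM in LK2-ctrl cells (0.65 ± 0.077, adjusted p = 0.00226), and SNAI2, which encodes Slug, averaged 2.02 ± 0.072 CPM in LK2-maspin and 0.90 ± 0.19 CPM in LK2-ctrl cells (1.17 ± 0.21, adjusted p = 0.0351). No tight junction gene was called in those cells by the quasi-likelihood test without the replicate block. The part of TWIST1 and SNAI2 in the levels of tight junction genes was not tested.

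Other genes of the junction were read from 3 lists. Of 11 further membrane proteins, 4 fell in LC-AI-maspin cells and none rose, against 6.53% of all genes lower and 4.01% higher, and in LK-2 cells 0 were called by edgeR with 2 at an unadjusted p under 0.05, while DESeq2 and the likelihood ratio test called 2 higher, among them CLMP. Among the 4, ILDR2, an angulin of tricellular contacts, fell by 0.69 ± 0.10, CXADR, the coxsackievirus and adenovirus receptor, by 0.27 ± 0.070, and BVES, a popeye domain protein of cell contacts, by 0.38 ± 0.11 on the log2 scale. The median over the list was −0.14 in RERF-LC-AI cells, against 0.014 over all genes.

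Of 18 plaque and actomyosin regulators, 3 rose and 5 fell in LC-AI-maspin cells, against 4.01% of all genes higher and 6.53% lower. The Rab GTPase gene RAB3B fell by 0.39 ± 0.047 and the angiomotin relative AMOTL1 by 0.39 ± 0.057 on the log2 scale. In LK-2 cells edgeR called 0 of 18 with 2 at an unadjusted p under 0.05, RAB3B (−0.40 ± 0.081, adjusted p = 0.0630) and AMOTL1 (0.45 ± 0.11, adjusted p = 0.151), which DESeq2 and the likelihood ratio test both called, and the effect on AMOTL1 differed between the lines (−0.84 ± 0.12, adjusted p = 0.00064). ARHGEF2, a guanine nucleotide exchange factor that cingulin holds at the junction, averaged 263 ± 18.1 CPM in LC-AI-maspin and 198.5 ± 28.5 CPM in LC-AI-ctrl cells (0.41 ± 0.067, adjusted p = 7.12e-05). Of 16 polarity and scaffold partners, LIN7C, a PDZ partner of PALS1, was the 1 gene called by edgeR's quasi-likelihood test (0.24 ± 0.058, adjusted p = 0.00567), or 6.25% against 10.5% of all genes. DESeq2 also called LLGL1 and CDC42 lower, and the likelihood ratio test LLGL1.

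Markers of epithelial identity were read in RERF-LC-AI cells beside these genes. Of 10 epithelial markers 9 were tested and 3 fell, against 6.53% of all genes, all 3 keratin genes: KRT8 by 0.48 ± 0.046, KRT18 by 0.42 ± 0.045 and KRT19 by 0.30 ± 0.077 on the log2 scale. DESeq2 called KRT8, KRT18 and ESRP2, and did not call KRT19. The summed level of the list was 1555 to 1679 CPM in LC-AI-maspin and 2123 to 2252 CPM in LC-AI-ctrl libraries, most of it from these 3 keratins (1448, 601 and 125 CPM in LC-AI-ctrl cells for KRT8, KRT18 and KRT19). Of 6 mesenchymal markers, PDGFRB and COL1A2 also fell, and the list summed to 1772 to 1952 CPM in LC-AI-maspin and 1891 to 2086 CPM in LC-AI-ctrl libraries. CDH1 averaged 2.26 ± 0.67 CPM in LC-AI-maspin and 2.96 ± 0.67 CPM in LC-AI-ctrl cells and was not called (adjusted p = 0.284). The part of such shifts in the changes of CLDN7, CGN or CLDN1 was not tested.

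Several member loci share exon bases with other genes in GENCODE annotation of GRCh38. On the same strand another annotated gene covers 36.6% of the exon bases of F11R, 15.8% of CLDN11 and 10.8% of CLDN7, and on the opposite strand DZIP1 covers 46.0% of CLDN10, NCAPD3 35.6% of JAM3 and PHLPP2 16.8% of MARVELD3. The sources used here do not say whether the counting used strand, so the levels of these genes are less certain. CRB3 shares 0.938% with DENND1C, and CLDN1, CLDN23 and CGN share no exon bases with another gene.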

How the data were processed

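Poly(A) RNA was sequenced on an Illumina NovaSeq system. The authors mapped trimmed reads (Trimmomatic 0.39) to GRCh38.p13 using BWA 0.7.17, with SAMtools 1.12 (LK-2) or 1.10 (RERF-LC-AI), and deposited counts of mapped reads per gene, 1 table per line. No source used here names the counting tool. Among counts of 1 to 9, 23.9 to 26.2% were odd, so that most fragments were counted by both reads and are fewer than the counts. Normalized columns were not used, and 646 lines with no symbol (0.292 to 0.416% of counts) were left out.

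Raw counts were tested with edgeR 4.0.16 in R 4.3.3 (TMM, filterByExpr with minimum count 10 and minimum total 15, quasi-likelihood F test) in 6 libraries per line, and in 1 fit of 12 libraries for the interaction and the line difference, with Benjamini–Hochberg adjustment over all genes tested at 0.05. The SE is the log2 fold change over the square root of F. Levels per kb used median GENCODE 44 transcript lengths. Alternatives were the likelihood ratio test, DESeq2 1.42.0, other scalings, other filters, a replicate block, 1 fit for all libraries, leaving out each library and a threshold of 0.01. Per-library values were given for members called in a maspin comparison or the interaction and for the 8 largest called line differences, other members by counts and ranges, and at most 4 genes per further list. Members and lists were chosen with earlier results of these data known.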

Additional observations from a re-analysis of the deposited data

Results flagged for a closer look

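The effect of maspin differed between RERF-LC-AI and LK-2 cells for 3 tight junction genes in the edgeR interaction test. Maspin level and pool differed along with the line, and their parts in this cannot be told apart. The difference, RERF-LC-AI minus LK-2, was −1.19 ± 0.21 on the log2 scale for CLDN7, −0.64 ± 0.12 for CGN and 1.07 ± 0.25 for CRB3. CLDN7 and CGN were called in each of 22 alternative settings, and CRB3 in 14 of 22. In every LC-AI-maspin library CLDN7 and CGN were below, and CRB3 above, all LC-AI-ctrl libraries. These genes were named because they were called in the same libraries, so that separation adds no support. MPDZ, SYMPK, TJP1, CLDN15, CLDN6, F11R, CLDN18 and CLDN23, which were not called, had no overlap between these groups either. The share of all genes without overlap was not counted.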

How the results depend on the processing

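No alternative reversed the direction of a called member. CLDN1, CLDN7 and CGNL1 were called in RERF-LC-AI cells in all 17 alternatives, CGN in 13 of 17 and CRB3 in 9 of the 16 that gave an adjusted p, since DESeq2 gave CRB3 none. The number of members called in RERF-LC-AI cells was 5, became 3 at an adjusted p under 0.01 and 10 with the replicate block, and ran from 3 to 6 when 1 library was left out, with 3 without LC-AI-maspin replicate 3 or LC-AI-ctrl replicate 3, where CGN and CRB3 were lost. In LK-2 cells it was 0, became 1 with the block (CGN, 0.28 on the log2 scale, adjusted p = 7.54e-05), and was 0 in every leave-one-out fit. Over all genes, calls in RERF-LC-AI cells were 2655, became 1642 at an adjusted p under 0.01 and 4081 with the block. With 1 library left out they ran from 1764 to 2594. In LK-2 cells calls over all genes were 140, and 1190 with the block, so calls rose beyond the members as well. When 1 library was left out, the interaction had 2 to 3 calls and the line difference 24 to 26, not always of the same genes: without LC-AI-ctrl replicate 1 CRB3 lost the interaction and CGNL1 gained it. Equally numbered libraries correlated by 0.154, 0.0144 and 0.164 in LK-2 and by 0.0437, 0.0533 and 0.00167 in RERF-LC-AI cells across genes, not all above 0.1, so the numbers are not taken as a pairing, although in LK-2 cells each library correlated best with its own number. The block added CLDN15, F11R, MPDZ, PARD6A and SYMPK in RERF-LC-AI cells. CLDN20 and CLDN5 lost the line difference in 6 and 5 of 22 settings. With the longest transcript of each gene the share of CLDN11 in LK2-ctrl cells was 73.1% and that of CLDN1 in LC-AI-ctrl cells 58.5%. Members with under about 50 reads per library, CRB3 in RERF-LC-AI cells and most claudins under 1 CPM, can show only large differences.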
